A study of Danio rerio with 36 samples.

Results

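RNA from conventionally colonized zebrafish larvae was read with 2 library chemistries in the same study, and the 6 ribosomal-depleted libraries were set against the 7 polyA-selected ones. These 13 libraries, of 36 in the series, were chosen by their labels alone: conventional colonization, then experiment 1 (ribosomal depletion) or experiment 2 (polyA selection). Each library came from pooled heads, taken in front of the swim bladder, of larvae of a mixed wild-type line held by the US EPA, at 10 days after fertilization. All 13 pools carried a normal microbial community. The series also holds 10 libraries of axenic (microbe-free) heads and 13 of heads made axenic and given microbes back on day 1, and it was designed to look for molecular changes behind the hyperactivity of axenic larvae. Axenic and re-colonized libraries enter here only where their own values are set beside those of conventional heads.

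Most messenger RNAs carry a tail of adenosines, and polyA selection keeps RNA that such a tail lets bind to oligo-dT. Ribosomal depletion instead starts from total RNA and takes out ribosomal RNA with matching probes, so RNA without a tail stays in the library. RNAs without a long tail include the RNA of the signal recognition particle (7SL), the 7SK RNA that holds back a transcription elongation factor, the spliceosomal and nucleolar RNAs, and the messengers of replication-dependent histones, which end in a stem-loop.

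The chemistries were not run side by side on the same RNA. The ribosomal-depleted libraries were made by a contract laboratory, which also isolated the RNA, with a stranded total-RNA kit (Ribo-Zero Gold) and read in pairs of 50 bases. The polyA libraries were extracted, selected and built at the US EPA with other kits. Chemistry therefore cannot be told apart from the experiment, its larvae, the extraction, the kit, the laboratory or the sequencing, and every difference given here is one between these sets of libraries. The labels do not say whether each pool had its own spawn. The p-values set the difference between these sets of libraries against the scatter between pools, and that scatter may therefore be technical. A small p-value does not tell chemistry apart from the other features named above.

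Both deposited tables give estimated counts per gene, and 24023 symbols stood in both, of 24860 in the ribosomal-depleted table and 25077 in the polyA table. Counts over these symbols ranged from 11853522 to 14411391 in ribosomal-depleted libraries and from 15142331 to 25750887 in polyA libraries. Although shallower, each ribosomal-depleted library had more symbols with at least 1 count, 22887 to 23129 against 20913 to 22091. The biological coefficient of variation between pools was 15.2% in ribosomal-depleted and 36.8% in polyA libraries. Levels are given as CPM (counts over the TMM-scaled library total, times 1000000) or as a percentage of counts. Neither is corrected for transcript length, so they serve to compare libraries and not genes.

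RNA classes divided the chemistries almost completely. Small structural RNA (7SL, 7SK, spliceosomal, nucleolar, Cajal body, RNase P and MRP, Y and vault RNA; 67 symbols) took 53.1% ± 2.5 of ribosomal-depleted counts and 0.00757% ± 0.00240 of polyA counts (SD, n = 6 and 7). The lowest ribosomal-depleted library held 49.4% and the highest 56.4%, whereas polyA libraries ran from 0.00450% to 0.0112%. Protein-coding genes took 42.7% ± 2.11 of ribosomal-depleted counts and 95.8% ± 1.15 of polyA counts. Neither sum overlapped between the chemistries, and both gave a two-sided exact permutation p of 0.000583, the smallest that splits of 6 against 7 libraries can give. Some rows listed as coding are tied to ribosomal RNA, as described below. Of polyA counts, zgc:158463 held 2.49% and 3 CT583728 rows 0.510%, against 0.0384% and 0.00685% of ribosomal-depleted counts.

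The 7SL RNA alone, counted under its Rfam family accession RF00017, held 31.1% to 36.4% of ribosomal-depleted counts, and 0.00159% to 0.00599% of polyA counts. The 7SK RNA (rn7sk) held 8.77% to 9.59% of ribosomal-depleted counts and 0.000850% to 0.00174% of polyA counts. Spliceosomal snRNA averaged 4.28% ± 0.277 in ribosomal-depleted and 0.000761% ± 0.000261 in polyA libraries. The catalytic RNAs of RNase P and RNase MRP averaged 3.06% ± 0.117 in ribosomal-depleted and 0.000565% ± 0.000302 in polyA libraries. Nucleolar snoRNA averaged 2.33% ± 0.192 in ribosomal-depleted and 0.00160% ± 0.000652 in polyA libraries. Each of these classes was separated without overlap (adjusted exact permutation p = 0.000923 over 19 classes).

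Several other classes moved less. Ribosomal protein messengers took 3.54% ± 0.397 of ribosomal-depleted and 8.60% ± 1.37 of polyA counts, again without overlap (adjusted exact permutation p = 0.000923). Transcripts listed as lincRNA (long intergenic noncoding RNA) took 2.28% ± 0.203 in ribosomal-depleted and 3.72% ± 1.02 in polyA libraries (adjusted exact permutation p = 0.00237). With the 7SL and 7SK rows left out of the total, lincRNA took 3.99% ± 0.259 in ribosomal-depleted and 3.72% ± 1.02 in polyA libraries, which did not pass (adjusted exact permutation p = 0.542). The lincRNA share was mostly CR383676.1 in ribosomal-depleted and CT027638.1 in polyA libraries, so it does not describe the class member by member. Of 319 lincRNA symbols that passed the filter, 146 were called higher and 88 lower (45.8% and 27.6%), with a median log2 fold change of 0.55. Pseudogenes took 0.143% ± 0.0276 in ribosomal-depleted and 0.0653% ± 0.00596 in polyA libraries (adjusted exact permutation p = 0.000923). That share does not describe their members one by one. Of the 35 tested in the largest group, unprocessed pseudogenes, 7 were called higher and 8 lower (20.0% and 22.9%, against 35.3% and 35.7% of all symbols). Their median log2 fold change was -0.15 and the highest 9.15. Transcripts listed only as processed transcripts took 0.164% ± 0.0102 in ribosomal-depleted and 0.132% ± 0.0191 in polyA libraries (adjusted exact permutation p = 0.00969). Messengers of the mitochondrial genome took 0.925% ± 0.0604 in ribosomal-depleted and 1.11% ± 0.303 in polyA libraries. Antisense transcripts took 0.0268% ± 0.00151 in ribosomal-depleted and 0.0281% ± 0.00627 in polyA libraries. Neither passed the test (adjusted exact permutation p = 0.215 and 0.596).

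**Figure D1:**
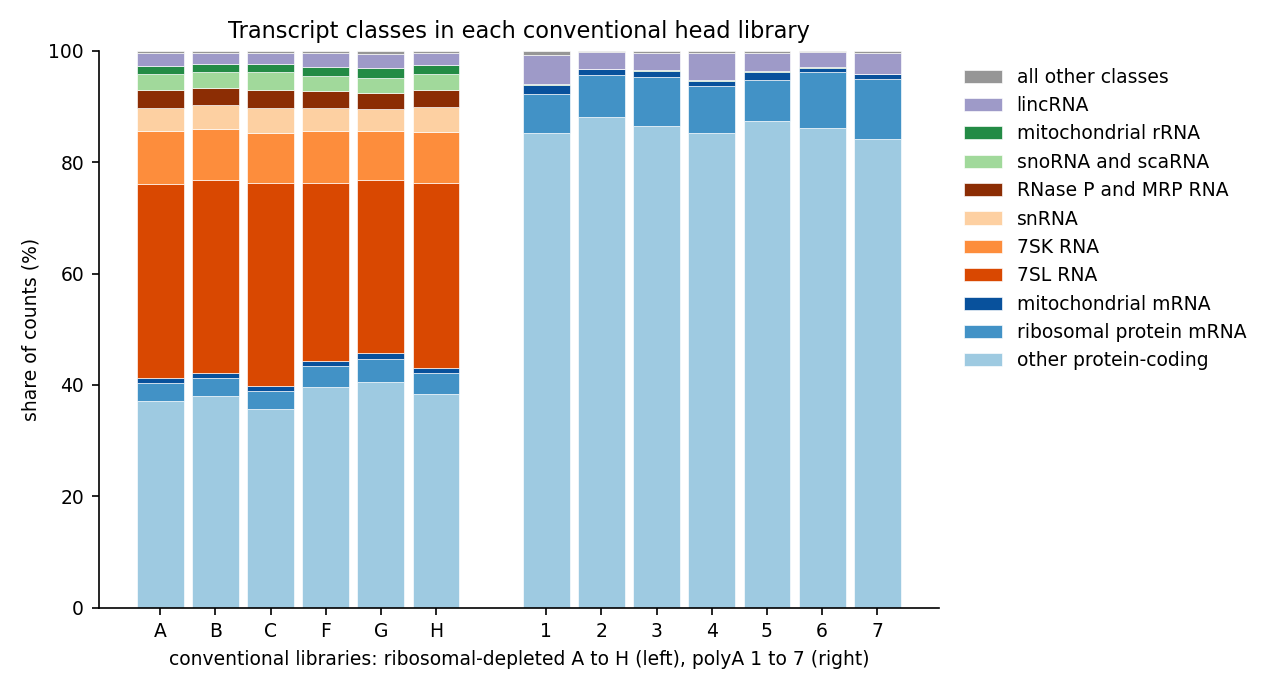
Percentage of counts taken by each transcript class, one stacked bar per library, with the 6 ribosomal-depleted libraries on the left and the 7 polyA libraries on the right. The 7SL segment fills 31.1% to 36.4% of each ribosomal-depleted bar and is too thin to see in polyA bars (at most 0.00599%), which protein-coding segments fill almost whole.

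A share depends on what else is in the library, so the coding classes were also taken as percentages of protein-coding counts, an alternative chosen after seeing the data. Protein-coding counts here keep the rows listed as coding that are tied to ribosomal RNA. Ribosomal protein messengers then took 8.26% ± 0.597 of ribosomal-depleted and 8.97% ± 1.4 of polyA coding counts, a difference within the spread (adjusted exact permutation p = 0.386 over 4 classes). Mitochondrial messengers turned round, with 2.16% ± 0.0831 of ribosomal-depleted and 1.16% ± 0.325 of polyA coding counts (adjusted exact permutation p = 0.00233). Histone messengers of the replication-dependent kind stayed higher, with 0.0589% ± 0.00970 of ribosomal-depleted and 0.00166% ± 0.000266 of polyA coding counts. Most of that polyA share was the gene hist2h2l, described below.

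Counts were piled on very few symbols in the ribosomal-depleted libraries. Between 4 and 9 symbols were needed for 50% of their counts, against 102 to 285 in polyA libraries (exact permutation p = 0.000583). With the 7SL and 7SK rows taken out, the numbers became 187 to 251 in ribosomal-depleted and still 102 to 285 in polyA libraries, which overlap (exact permutation p = 0.112). With all Rfam-named rows and rn7sk taken out, the order was reversed, at 514 to 629 symbols in ribosomal-depleted against 102 to 285 in polyA libraries. Over protein-coding genes alone it took 744 ± 38.0 genes in ribosomal-depleted and 189 ± 90.7 in polyA libraries (exact permutation p = 0.000583). The 10 leading coding genes held 7.84% ± 0.228 of coding counts in ribosomal-depleted and 19.9% ± 2.03 in polyA libraries. The leading coding genes of polyA libraries include zgc:158463, which holds 2.49% of their counts and is listed as rRNA by RefSeq.

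**Figure D2:**
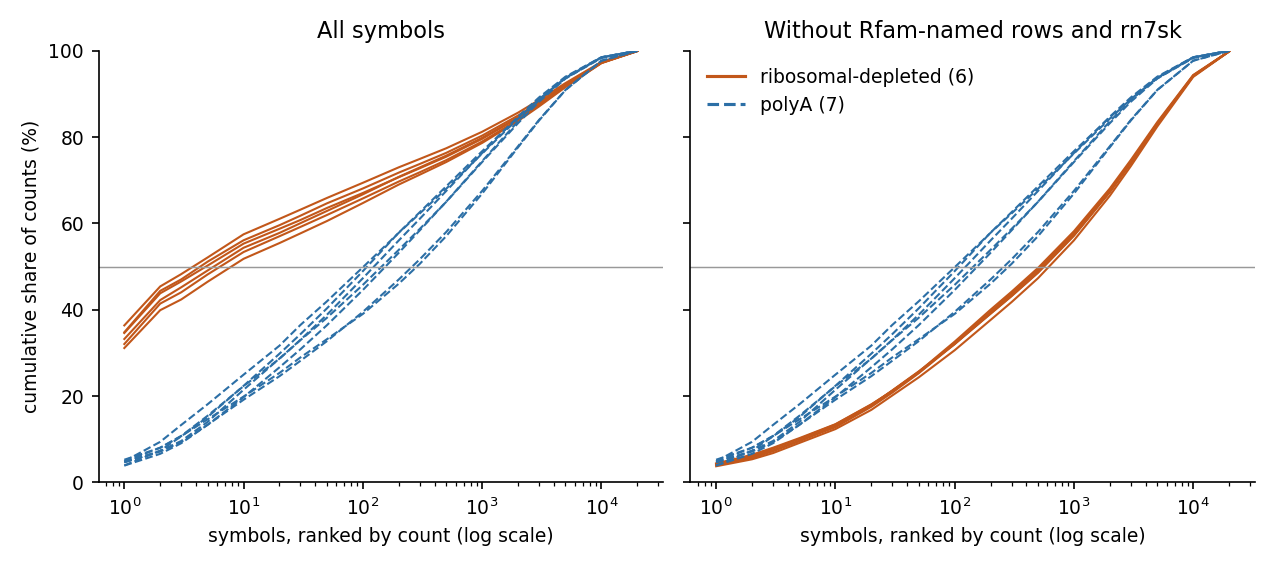
Cumulative percentage of counts against the rank of the symbol (log axis), one line per library, for all symbols (left) and without Rfam-named rows and rn7sk (right). Ribosomal-depleted lines pass 50% at 4 to 9 symbols, ahead of polyA lines at 102 to 285, and lie below them, at 514 to 629 symbols, once those rows are out.

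Gene by gene, 18971 symbols were tested, with log2 fold changes of ribosomal-depleted over polyA from edgeR's quasi-likelihood fit. At a Benjamini-Hochberg adjusted p below 0.05, 13465 (71.0%) were called. Of these 6698 (35.3% of those tested) were higher and 6767 (35.7%) were lower in ribosomal-depleted libraries. With upper-quartile factors in place of TMM the median of all symbols shifted by 0.39 and 62.9% of calls, against 49.7% with TMM, were higher. Because most symbols were called, a change of at least 4-fold is used beside the call: 1900 symbols (10.0%) were called and at least 4-fold higher, and 1756 (9.26%) at least 4-fold lower, 19.3% in all. With upper-quartile factors 1170 were at least 4-fold lower. The median log2 fold change over all symbols was 0.03. With structural RNAs left out of the fit the median shift was 0.06. Directions of single genes, and those that did not pass, hold on the TMM scale, and no fit was scaled to coding counts alone.

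The structural RNAs were measured one by one. The 7SL RNA stood at 283366, 318361 and 371760 CPM (lowest, median and highest) in ribosomal-depleted libraries, against 19.4, 28.6 and 69 CPM in polyA libraries. Its log2 fold change was 13.17 ± 0.54 (SE; adjusted p = 5.86e-13). The 7SK RNA stood at 79865, 86962 and 93490 CPM in ribosomal-depleted libraries and 8.53, 14.1 and 20.1 CPM in polyA libraries, a log2 fold change of 12.67 ± 0.40. For each, the lowest ribosomal-depleted library lay far above the highest polyA library.

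All 6 spliceosomal snRNA symbols tested were called and at least 4-fold higher, where 10.0% of all symbols were. Those near 0 CPM in polyA libraries could pass the filter on low counts only through the ribosomal-depleted ones. The count therefore describes the symbols kept. U1 (RF00003), which pairs with the 5′ splice site, stood at 22560, 25749 and 29175 CPM in ribosomal-depleted and 1.99, 3.36 and 8.29 CPM in polyA libraries. U2 (RF00004), which pairs with the branch point, had a log2 fold change of 11.98 ± 0.33. U6 (RF00026), at the catalytic centre of the spliceosome, was the smallest of these changes: 5.55, 6.96 and 7.82 CPM in ribosomal-depleted against 0, 0 and 0.367 CPM in polyA libraries, a log2 fold change of 5.53 ± 0.50. The minor spliceosome's U12 (RF00007) and U4atac (RF00618) had log2 fold changes of 8.63 ± 0.43 and 11.43 ± 0.35, and U5 (RF00020) one of 9.13 ± 0.35.

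RNase P RNA (RF00009), which trims the 5′ end of transfer RNA precursors, stood at 17498, 18674 and 21496 CPM in ribosomal-depleted libraries and 2.58, 4.68 and 12.7 CPM in polyA libraries. RNase MRP RNA (RF00030), which acts on ribosomal RNA precursors, stood at 8967, 9772 and 11153 CPM in ribosomal-depleted and 0, 0.157 and 1.32 CPM in polyA libraries. Its log2 fold change of 14.73 ± 0.60 was the largest among called symbols with a mean of at least 10 CPM. The Y RNA (RF00019) and the vault RNA (RF00006) had log2 fold changes of 11.08 ± 0.34 and 6.28 ± 0.60.

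Of 51 symbols listed as snoRNA, which guide chemical marking of ribosomal RNA, 36 passed the filter on low counts. Of those 34 rose, 33 of them at least 4-fold. Their median log2 fold change was 8.05, and 6.74 over all 51 with no filter. Members that are low in polyA libraries could pass the filter only through the ribosomal-depleted ones, so these counts are a description of the rows kept. The processing snoRNA U3 (RF00012) stood at 1787, 2168 and 3258 CPM in ribosomal-depleted and 0.13, 0.376 and 0.852 CPM in polyA libraries. U8 (RF00096) had 901 summed counts in ribosomal-depleted libraries and 0 in polyA libraries, which is at least 489.8-fold higher with 3 counts over the polyA group as the floor. A single snoRNA symbol, RF00089, fell by 4.30 on the log2 scale (mean 0.133 CPM in ribosomal-depleted and 2.77 CPM in polyA libraries). It was named after its values were seen. All 4 scaRNA symbols, guides for the snRNAs in Cajal bodies, rose at least 4-fold, led by RF01268 at 14.52 ± 0.49.

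These fold changes rest on a handful of polyA counts and moved with single polyA libraries. Without polyA 6 the log2 fold change of vault RNA was 9.23, of U4atac 12.40 and of RF01268 15.12, and without polyA 1 that of U12 was 9.34. All stayed called. In re-colonized heads 34 of 36 snoRNA symbols rose, and in axenic heads 37 of 38, where 7067 of 19838 and 6733 of 19617 of all symbols rose. The same filter was used there, so these counts too describe the symbols kept. The 7SL log2 fold change was 14.14 in re-colonized and 14.17 in axenic heads.

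**Figure D3:**
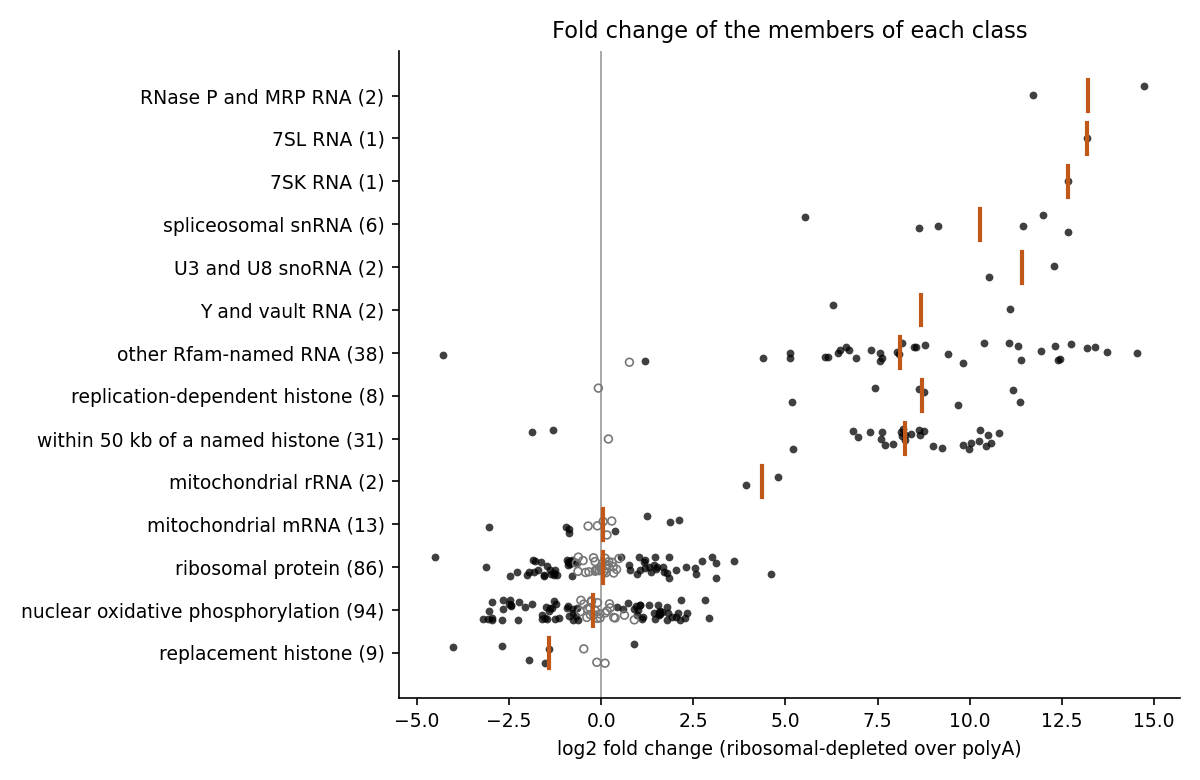
Log2 fold change, ribosomal-depleted over polyA, of each tested member of 14 transcript classes and gene lists (number tested in brackets). Filled points passed an adjusted p below 0.05, open points did not, and bars mark medians. The spliceosomal snRNAs lie far above 0, as do most other Rfam-named RNAs, which are snoRNA and scaRNA (median 8.11), while ribosomal protein genes scatter about a median of 0.06.

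Of 10 rows listed as rRNA 2 fell, 1 rose and 7 did not pass, and in polyA libraries most counts tied to ribosomal RNA stood in rows the deposited tables do not list as rRNA. The symbol zgc:158463 (chromosome 5, 824709 to 825921, GRCz11) is listed as protein-coding in the deposited tables, and RefSeq's GRCz12tu annotation gives this symbol the biotype rRNA. It stood at 309, 342 and 514 CPM in ribosomal-depleted libraries and 15432, 24206 and 45051 CPM in polyA libraries. Its log2 fold change was -6.18 ± 0.36 (adjusted p = 4.51e-11), and it was the symbol with the third highest share of polyA counts, 2.49% ± 0.865, against 0.0384% ± 0.00734 of ribosomal-depleted counts. Highest among ribosomal-depleted libraries was A.

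On chromosome 4, between 55728130 and 55884398, 12 rows carry the clone name CT583728, 8 of them listed as rRNA, 3 as protein-coding and 1 as a pseudogene. Together they took 0.00585%, 0.00771% and 0.174% of ribosomal-depleted counts (lowest, median and highest) and 0.475%, 0.592% and 1.25% of polyA counts. The 0.174% belongs to library G, far above the other 5 ribosomal-depleted libraries, and still below every polyA library. The largest fall among called symbols, by the rule on the mean level, was CT583728.3 (55779603 to 55779777, listed as rRNA). It stood at 0, 0 and 0.952 CPM in ribosomal-depleted libraries against 364, 980 and 3901 CPM in polyA libraries, with a log2 fold change of -12.18 ± 0.85. That value was -11.55 without polyA 1, the highest library, and -13.22 without ribosomal-depleted B.

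The rows CT583728.13 and CT583728.24 are listed as protein-coding, span rows listed as rRNA, and had the same values as each other in every polyA library (722, 2574 and 6363 CPM), so their reads cannot be told apart. In ribosomal-depleted libraries CT583728.13 stood at 3.19, 4.54 and 184 CPM and CT583728.24 at 0, 0.261 and 168 CPM, with library G highest in both. Their log2 fold changes were -6.37 ± 1.09 and -6.65 ± 1.53, and without library G -9.39 and -13.54. The 12 rows and zgc:158463 summed to 0.0401%, 0.0451% and 0.208% of ribosomal-depleted counts and 2.00%, 2.83% and 5.16% of polyA counts.

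Rows listed as rRNA, taken alone, held 0.00585% to 0.00791% of counts in 5 ribosomal-depleted libraries and 0.136% in library G, against 0.0517% to 0.181% in 6 polyA libraries and 0.501% in polyA 1 (adjusted exact permutation p = 0.0104 with all 13). Without the 7SL and 7SK rows in the total that test did not pass (adjusted exact permutation p = 0.0743). The difference of means was -0.142 percentage points, and -0.0871 without polyA 1. Among the short ribosomal RNAs, 5S (RF00001) fell by 2.78 on the log2 scale (SE 0.24), and 5.8S (RF00002) rose by 1.56 (SE 0.39) with overlapping libraries. Both were low, with means of 0.612 CPM in ribosomal-depleted and 4.22 CPM in polyA libraries for 5S. For 5.8S the means were 5.65 CPM in ribosomal-depleted and 1.92 CPM in polyA libraries. Each symbol covers several loci. The ribosomal RNAs of mitochondria rose instead. The row NC_002333.4 stood at 5792, 7410 and 9606 CPM in ribosomal-depleted and 204, 277 and 311 CPM in polyA libraries, a log2 fold change of 4.79 ± 0.21, and NC_002333.17 changed by 3.93 ± 0.19. Together they took 1.55% ± 0.197 of ribosomal-depleted and 0.0734% ± 0.0193 of polyA counts.

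Replication-dependent histone messengers were near 0 CPM in the polyA libraries. Of 8 tested symbols listed as such histones 7 rose, each at least 4-fold (87.5%, against 10.0% of all symbols). Their median log2 fold change was 8.69, and the class took 15.8 times the share of counts. Members near 0 CPM in polyA libraries could pass the filter on low counts only through the ribosomal-depleted ones. The count of 7 among 8 therefore describes the rows kept. The polyA share of the class was mostly hist2h2l, at a mean of 16.1 CPM, where no other member had a polyA mean above 0.277 CPM. The H2A gene hist1h2a4 stood at 45.2, 55.6 and 71.8 CPM in ribosomal-depleted libraries and 0, 0.0866 and 0.665 CPM in polyA libraries, a log2 fold change of 8.63 ± 0.44, which was 9.89 without polyA 4. The H2A gene hist1h2a11 had a log2 fold change of 8.76 ± 0.36, and 9.39 without polyA 1. For hist1h2a2 there were 4244 summed counts in ribosomal-depleted and 2 in polyA libraries, a ratio per scaled depth of 3460 (95% exact interval 957 to 28583, counting error only). Both polyA counts came from polyA 2, and the fitted log2 fold change was 11.16 with that library and 12.75 without it. The exception was hist2h2l, at 11.5, 15.6 and 19.1 CPM in ribosomal-depleted and 12.2, 15.3 and 21.7 CPM in polyA libraries (adjusted p = 0.707).

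Further members of the same list, already counted above and named after their values were seen, were near 0 CPM in polyA libraries too. The gene hist1h2a6 had 1612 summed counts in ribosomal-depleted libraries and 0 in polyA libraries, at least 876-fold higher at the 3-count floor. The H3 gene hist2h3c stood at 21.5, 30.1 and 39.9 CPM in ribosomal-depleted and 0, 0 and 0.705 CPM in polyA libraries, a log2 fold change of 7.42 ± 0.48, and 8.60 without polyA 3. These histones belong to families of near-identical copies, and how the counting split reads among copies is not given in the sources used here.

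Zebrafish histone genes lie in clusters, and many members have only clone or zgc names. Coding genes of up to 10000 bases within 50 kilobases of 7 single-locus named histone genes were therefore listed. The list was made after values were seen and is given without a test. Its members near 0 CPM in polyA libraries could pass the filter only through the ribosomal-depleted ones. Of the 7, HIST2H3D and HIST2H4B are not among the 8 replication-dependent symbols above, and the list did not leave them out as members. On chromosome 7 all 14 tested, and on chromosome 25 14 of 15, were called and at least 4-fold higher. On chromosome 10, around hist2h2l, 0 of 2 were. The median over the 31 was 8.24. The exceptions were zgc:162611 on chromosome 25, at a log2 fold change of -1.87, the H2A.X gene h2afx1, at 0.20, and the heat shock cognate hspa8, at -1.31. Away from the clusters, zgc:153409 on chromosome 5 stood at 585, 652 and 736 CPM in ribosomal-depleted and 0.0517, 0.282 and 0.542 CPM in polyA libraries, a log2 fold change of 11.01 ± 0.32. The files give it no histone name, and it was named after its values were seen.

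Replacement histones, which are made outside DNA replication and carry tails, fell more often than they rose. Of 9 tested 5 fell, 1 rose and 3 did not pass (55.6% lower and 11.1% higher, against 35.7% and 35.3% of all symbols), with a median of -1.42. The H3.3 gene h3f3d stood at 41.8, 42.2 and 52 CPM in ribosomal-depleted and 430, 756 and 945 CPM in polyA libraries, a log2 fold change of -4.03 ± 0.23. The H3.3 genes h3f3c and h3f3b.1 fell by 2.69 and 1.52 on the log2 scale. The linker histone h1f0 stood at 255, 319 and 449 CPM in ribosomal-depleted and 268, 321 and 368 CPM in polyA libraries (log2 fold change 0.10, adjusted p = 0.586). The H2A.Z-type gene h2afva, named after its values were seen, rose by 0.89 (SE 0.23).

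**Figure D4:**
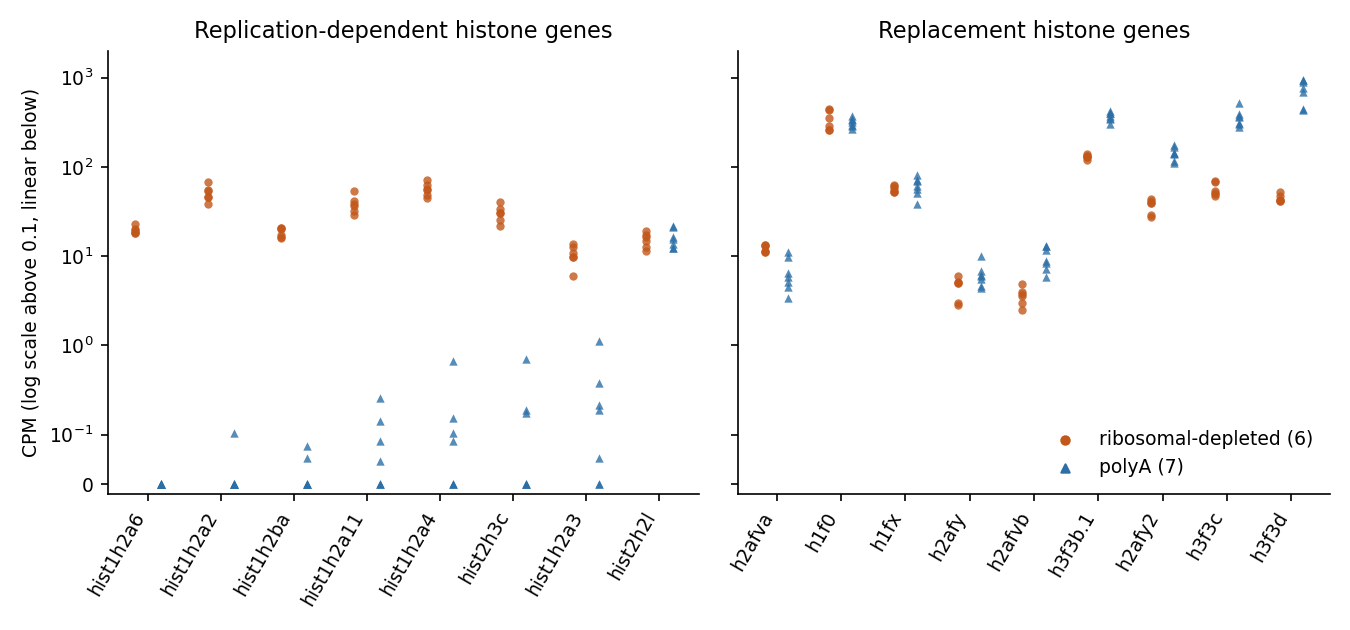
CPM per library of replication-dependent and replacement histone messengers, ribosomal-depleted (circles, n = 6) left of polyA (triangles, n = 7), on an axis that is logarithmic above 0.1 and linear below. Most replication-dependent genes lie near 0 in polyA libraries, hist2h2l lies at 11.5 to 19.1 against 12.2 to 21.7 CPM, and h3f3d is lower in ribosomal-depleted libraries.

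Long noncoding transcripts went both ways. Of the symbols listed as lincRNA 319 passed the filter on low counts, and a symbol that passed through one chemistry alone had to differ, so the counts describe the symbols kept. Of these 146 rose and 88 fell, with a median of 0.55. At least 4-fold higher were 25.7% and at least 4-fold lower 11.3%, where 10.0% and 9.26% of all symbols were. The symbol CR383676.1 (chromosome 14, 45631236 to 45638713) stood at 16054, 18792 and 20152 CPM in ribosomal-depleted libraries and 504, 695 and 809 CPM in polyA libraries, a log2 fold change of 4.76 ± 0.21. It alone held 1.96% ± 0.191 of ribosomal-depleted counts. The symbol CT027638.1 (chromosome 20, 55169000 to 55169890) was its opposite, at 805, 939 and 1855 CPM in ribosomal-depleted and 22215, 30060 and 51865 CPM in polyA libraries, a log2 fold change of -4.96 ± 0.32. It held 3.25% ± 0.995 of polyA counts. The named noncoding RNA oip5-as1 rose by 0.93 (SE 0.21).

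Of the 139 processed transcripts tested, of 413, 81 rose (58.3%) and 29 fell (20.9%), with a median of 1.15. Of the 139, 41.7% were at least 4-fold higher and 12.9% lower, where 10.0% and 9.26% of all symbols were. Here too a symbol that passed the filter through one chemistry alone had to differ, so the counts describe the symbols kept. With a minimum mean of 1 CPM the median was 0.69. Transcripts listed as antisense gave 33 higher and 28 lower of the 77 tested, of 241 (42.9% and 36.4%, where 35.3% and 35.7% of all symbols were). Of the 77, 27.3% were at least 4-fold higher and 24.7% lower, and the limit from the filter holds for them too. Since the strand used in counting is not given in the sources used here, antisense rows may hold reads of the gene opposite.

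Some symbols were found with one chemistry only. At 10 or more counts in every library of one chemistry and 3 or fewer summed over the other, 44 symbols were found in ribosomal-depleted and 5 in polyA libraries. The 44 comprised 27 coding, 6 processed transcript, 5 lincRNA, 5 snoRNA and 1 pseudogene symbols. Of the 24023 symbols in both tables, 22388 were coding, 413 processed transcripts and 51 snoRNA. Coding symbols were thus a smaller part of the 44 than of all symbols, and processed transcripts and snoRNA a larger part. Beside histones, the coding ones among the 44 included sst2, of the somatostatin hormone family, with 181 summed counts in ribosomal-depleted and 0 in polyA libraries. They also included her4.4, of the hairy/enhancer-of-split family, with 366 in ribosomal-depleted and 3 in polyA libraries. Of the 5 found in polyA libraries, hmx3b, a homeobox gene, had 3 summed counts in ribosomal-depleted and 161 in polyA libraries. These genes were named after their values were seen, and the intervals of such counts cover counting error only.

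Messengers of the mitochondrial genome, which are read from one circular genome, were measured in all 13 cases. Of these 4 rose, 4 fell and 5 did not pass (30.8% in each direction, near the 35.3% and 35.7% of all symbols), with a median of 0.05. The cytochrome oxidase subunit mt-co2 stood at 787, 947 and 1088 CPM in ribosomal-depleted and 138, 226 and 331 CPM in polyA libraries, a log2 fold change of 2.12 ± 0.19. The subunit mt-co1 of the same enzyme stood at 2326, 2572 and 2738 CPM in ribosomal-depleted and 3620, 4429 and 6815 CPM in polyA libraries, a log2 fold change of -0.94 ± 0.19. The complex I subunit mt-nd2 had the largest fall, at 196, 201 and 217 CPM in ribosomal-depleted libraries against 1282, 1520 and 3020 CPM in polyA libraries (-3.05 ± 0.22). Of genes named after their values were seen, mt-cyb, cytochrome b, rose by 1.88 (SE 0.18) and the complex I subunit mt-nd4 fell by 0.87 (SE 0.16), and mt-co3 did not pass (0.29, adjusted p = 0.163). With the other larvae, mt-co2 changed by 1.63 in re-colonized and 1.80 in axenic heads, and mt-nd2 by -2.45 and -2.10.

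Cytoplasmic ribosomal protein genes went both ways. Of 86, 30 rose and 28 fell (34.9% and 32.6%, near the 35.3% and 35.7% of all symbols), with a median of 0.06. The stalk protein gene rplp1 stood at 734, 952 and 1112 CPM in ribosomal-depleted and 10866, 21341 and 26256 CPM in polyA libraries, a log2 fold change of -4.52 ± 0.27. The genes rps2, rplp0 and rpsa fell by 3.12, 2.02 and 1.84 on the log2 scale. At the other end, rpl29, named after its values were seen, stood at 42.4, 57.8 and 68.1 CPM in ribosomal-depleted and 0.207, 2.11 and 4.3 CPM in polyA libraries, a log2 fold change of 4.59 ± 0.35. Genes of one complex thus spread over a range from -4.52 to 4.59. In re-colonized heads 42 of 86 rose and 16 fell, where 7067 of all 19838 symbols rose and 6756 fell. In axenic heads 40 of 86 rose and 17 fell, where 6733 of all 19617 symbols rose and 6482 fell.

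Many snoRNAs lie inside ribosomal protein genes, and the deposited coordinates show where. Of the coding ribosomal protein genes tested, 19 held a small structural RNA row within their span, and of these 4 rose and 11 fell (median -0.80). Of the 66 that held none, 26 rose and 17 fell (median 0.16), where 35.3% of all symbols rose and 35.7% fell. Over all coding genes tested, 63 held such a row, with a median of -0.75, against 0.01 for the 18237 that did not. This split, and RF00092, RF00091 and rps7 named from it, were chosen after seeing the data and were not tested as a group. Genes that held a row were not matched for level with those that did not. Coding genes with a mean of 100 to 1000 CPM had a median of -1.80, and those at 1 to 10 CPM one of 0.44. The part of level in the split was not tested. At rplp0 the gene fell by 2.02 and the row inside it, RF00092, rose by 6.65 (mean 28.2 CPM in ribosomal-depleted and 0.274 CPM in polyA libraries). At rpsa the gene fell by 1.84 and RF00091 rose by 5.13. The one such gene at least 4-fold higher was rps7 (3.11 ± 0.27), whose span holds RF00045, a row at 9198 to 12126 CPM in ribosomal-depleted and 0.31 to 2.53 CPM in polyA libraries. Whether reads of the one were counted to the other was not tested.

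Nuclear genes of oxidative phosphorylation gave 33 higher and 38 lower of 94 (35.1% and 40.4%, near the 35.3% and 35.7% of all symbols), with a median of -0.23. In the other larvae the counts leaned the opposite way. Of 96 tested, 40 rose and 28 fell (median 0.31) in re-colonized, and 38 rose and 29 fell (median 0.20) in axenic heads. Of all symbols, 7067 of 19838 rose and 6756 fell in re-colonized, and 6733 of 19617 rose and 6482 fell in axenic heads. The ATP synthase subunits atp5f1b and atp5fa1 fell by 2.5 and 2.96 on the log2 scale, and sdha, of succinate dehydrogenase, by 2.44. Among 55 coding genes with very long messengers 19 rose and 21 fell (34.5% and 38.2%, near the shares of all symbols), with a median of -0.07. The giant sarcomere gene ttn.1 stood at 1861, 2178 and 2526 CPM in ribosomal-depleted and 31.5, 65.2 and 148 CPM in polyA libraries, a log2 fold change of 4.78 ± 0.33, and its neighbour ttn.2 rose by 4.45 (SE 0.31). The ubiquitin ligase huwe1 and the lipoprotein receptor lrp1ab fell by 1.89 and 1.15.

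The 10 symbols with the highest shares of polyA counts were chosen for being high in that chemistry, and their lower values in ribosomal-depleted libraries are given as a description. The 10 with the highest shares of ribosomal-depleted counts, all of them noncoding, were all higher there (log2 fold changes 3.93 to 14.73). They were chosen for being high there, so this too is a description. The translation elongation factor eef2b led, with 4.38% ± 0.683 of polyA counts. It stood at 3792, 3923 and 4069 CPM in ribosomal-depleted and 26320, 54035 and 57782 CPM in polyA libraries, a log2 fold change of -3.58 ± 0.28. The elongation factor eef1a1l1 stood at 5833, 6393 and 6583 CPM in ribosomal-depleted and 10489, 25005 and 30349 CPM in polyA libraries (-1.88 ± 0.25). The cytoplasmic actin actb2 fell by 2.71, the chaperone hsp90ab1 by 3.26, and the lens crystallins crybb1l2 and crybb1l1 by 2.99 and 2.41 on the log2 scale. Among the largest falls was also tmx3b, a thioredoxin-related gene, at 0.654, 0.863 and 1.08 CPM in ribosomal-depleted and 20.3, 91 and 144 CPM in polyA libraries (-6.54 ± 0.45).

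Coding genes differed by level, taken as the mean over both chemistries. Of 934 coding genes with a mean of 100 to 1000 CPM over the 13 libraries, 45% were at least 4-fold lower and 1.5% at least 4-fold higher in ribosomal-depleted libraries, with a median log2 fold change of -1.80. Of 85 at 1000 CPM or more, 49.4% were at least 4-fold lower and 2.35% higher. Of 9437 genes at 1 to 10 CPM, 3.6% were at least 4-fold lower and 12.5% higher, with a median of 0.44. Genes at 10 to 100 CPM lay between, at 12.7% lower and 3.27% higher.

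Short genes were more often higher. Of 124 coding genes spanning under 1000 bases, with named histones and their windows left out, 36.3% were at least 4-fold higher and 16.1% lower. The windows reach 50 kilobases, so short genes further out in the histone regions stayed in. One such gene, zgc:171759 (chromosome 25, 35124202 to 35124577), had 1921 summed counts in ribosomal-depleted and 0 in polyA libraries. The part of such genes in the 36.3% was not tested. Of 4773 spanning 30000 to 100000 bases, 4.92% were at least 4-fold higher and 7.44% lower. The span is that of the gene with its introns, and transcript length and base composition were not analysed here.

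Genes that mark the tissues of the head were checked against the label. The lists named 25 neuron, 33 photoreceptor, 27 lens, 31 liver and 33 exocrine pancreas symbols, and not all stood in both experiments. Of those that did, all 25 neuron, 30 of 31 photoreceptor and 20 of 24 lens markers passed the filter. Markers of organs that lie behind the head or around it passed too, 28 of 28 for liver and 20 of 21 for exocrine pancreas. In pools of tissue, fewer cells of a type and less RNA per cell cannot be told apart. Nor can either be told apart from chemistry in these libraries.

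Of all symbols 35.3% were higher and 35.7% lower in ribosomal-depleted libraries, and the tissue lists are read against these shares. Neuron markers were lower in ribosomal-depleted libraries in 21 of 25 (84.0%) and higher in 2, with a median of -1.62. The synaptic vesicle calcium sensor syt1a stood at 141, 146 and 163 CPM in ribosomal-depleted and 337, 564 and 846 CPM in polyA libraries (-1.98 ± 0.21), and the vesicle release factor stxbp1a fell by 2.38 on the log2 scale. Of 17 glial markers 9 fell (52.9%) and 4 rose (23.5%). The glutamate transporter slc1a2b stood at 106, 131 and 152 CPM in ribosomal-depleted and 1579, 2554 and 3075 CPM in polyA libraries (-4.23 ± 0.20). Glutamine synthetase, glulb, did not pass (-0.16, adjusted p = 0.552). Photoreceptor markers fell in 20 of 30 (66.7%) and rose in 7, with rod opsin, rho, at 398, 454 and 595 CPM in ribosomal-depleted and 1443, 4197 and 5438 CPM in polyA libraries (-3.05 ± 0.30).

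Lens markers fell in 15 of 20, cell cycle genes in 24 of 32, skin keratinocyte markers in 16 of 29 (55.2%) and cartilage and bone markers in 21 of 33 (63.6%), where 35.7% of all symbols fell, with medians of -1.55, -1.34, -1.10 and -1.08. The cartilage collagen col2a1a stood at 115, 129 and 142 CPM in ribosomal-depleted and 638, 953 and 2203 CPM in polyA libraries (-3.28 ± 0.28), and the keratin krt5 fell by 4.33 (SE 0.21). Muscle genes gave 12 higher and 19 lower of 43 (27.9% and 44.2%), and heat shock genes 6 higher and 19 lower of 34 (17.6% and 55.9%). The replication factor mcm7 fell by 3.68 (SE 0.37).

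Markers of liver were more often higher, 18 higher and 6 lower of 28 (64.3% and 21.4%, against 35.3% and 35.7% of all symbols), with a median of 0.72. The retinol carrier rbp4 stood at 360, 394 and 457 CPM in ribosomal-depleted and 40.3, 72.2 and 128 CPM in polyA libraries (2.43 ± 0.24), while complement c3a.1 fell by 0.80 (SE 0.18). Leukocyte markers gave 15 higher and 6 lower of 34 (44.1% and 17.6%, median 0.29), and the neutrophil peroxidase mpx fell by 2.45 (SE 0.31). Exocrine pancreas markers gave 7 higher (35.0%, near the 35.3% of all symbols) and 2 lower (10.0%) of 20, with the trypsinogen-like gene prss59.2 at 2670, 3146 and 3686 CPM in ribosomal-depleted and 346, 3142 and 5719 CPM in polyA libraries (-0.11, adjusted p = 0.809). Red blood cell markers gave 4 higher and 3 lower of 14 (28.6% and 21.4%), intestine 7 and 6 of 18 (38.9% and 33.3%), and immediate early genes 13 and 9 of 38 (34.2% and 23.7%), near or below the shares of all symbols. The globin hbbe1.1 rose by 2.31 (SE 0.42) and the early response gene egr1 fell by 2.40 (SE 0.25). The tissue lists differ in the level of their members as well as in tissue, and the part of level in these counts was not tested.

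**Figure D5:**
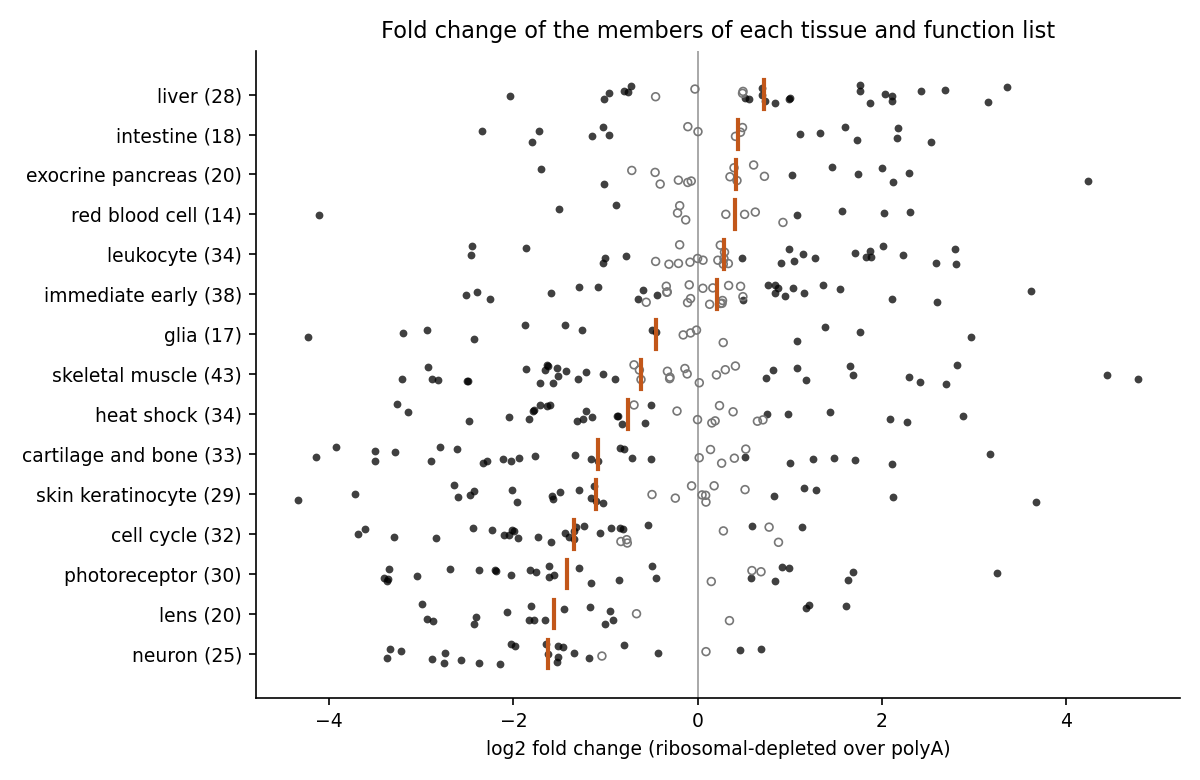
Log2 fold change, ribosomal-depleted over polyA, of each tested member of 15 tissue and function lists (number tested in brackets), ordered by median. Filled points passed an adjusted p below 0.05 and bars mark medians, from 0.72 for liver to -1.62 for neuron markers.

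The same contrast was fitted in the other larvae, which share no library with conventional heads. Their libraries came from the same 2 experiments, so chemistry is confounded there in the same way. In re-colonized heads (6 ribosomal-depleted, 7 polyA) 69.7% of 19838 symbols were called, 9.1% as at least 4-fold higher and 6.21% as at least 4-fold lower. In axenic heads (6 and 4) 67.4% of 19617 were called, 8.65% and 6.38% in these directions. Of the symbols at least 4-fold higher in conventional ribosomal-depleted libraries, 1365 of 1860 tested were so in re-colonized and 1268 of 1874 in axenic heads. Of those at least 4-fold lower, 1125 of 1751 and 1155 of 1736 were so. None of these 4-fold symbols was called in the opposite direction (0 in either). Neuron markers had medians of -1.81 in re-colonized and -1.58 in axenic heads, and replication-dependent histones medians of 9.18 and 9.64. The 7SL RNA took 32.7% ± 2.22 of ribosomal-depleted and 0.00220% ± 0.000827 of polyA counts in re-colonized heads, and 31.7% ± 2.94 and 0.00182% ± 0.000610 in axenic heads. Antisense transcripts, which did not pass the test in conventional heads, took 0.0267% ± 0.00174 of ribosomal-depleted and 0.0360% ± 0.00560 of polyA counts in re-colonized heads (adjusted exact permutation p = 0.00692). The direction rested on the denominator: without the 7SL and 7SK rows in the total, conventional heads gave 0.0469% ± 0.00172 in ribosomal-depleted and 0.0281% ± 0.00627 in polyA libraries (adjusted exact permutation p = 0.00152).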

How the data were processed

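The submitters' processing notes name bcl2fastq, STAR 2.5.3a, the build GRCz11 and Partek 8.0.19.0428. Which annotation was used, and whether strand was, is not given in the sources used here. The authors deposited estimated counts per gene in one table per experiment, with 0 columns left without a sample. In these libraries 9.19% (ribosomal-depleted) and 16.1% (polyA) of values lay over 0.01 from a whole number, and all were rounded before testing, where whole counts had been assumed.

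Symbols in both tables entered a fit in edgeR 4.0.16 under R 4.3.3 (quasi-likelihood, TMM, filter on low counts, 13 libraries, 2 groups, two-sided, Benjamini-Hochberg threshold 0.05). The SE is the absolute log2 fold change over the square root of F. Class shares used exact permutation tests, adjusted over 19 classes. Biotypes are the deposited ones, and RefSeq's GRCz12tu table gave biotypes by symbol, with 17952 deposited coding symbols matched as coding, 4335 unmatched and 1 as rRNA. Rfam families are named by accession. Symbols that cover several loci are given without coordinates.

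The members, lists and tests were chosen with earlier results of these data known. Named genes were the 10 with the highest share in each chemistry, the 10 with the largest called change each way at a mean of at least 10 CPM, up to 6 members or the 4 most abundant of each class, and the 3 most abundant of each tissue list, with last ranks left out for length. Others are said to be named after their values were seen.

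The fit was tested on simulated counts with known changes. Every pair of libraries differed by more than sampling noise (lowest chi-square per degree of freedom 5.53 in ribosomal-depleted and 32.1 in polyA libraries). Alternatives were DESeq2 1.42.0, limma 3.58.1 voom with quality weights, other scalings and filters, all 36 libraries in 1 fit, re-colonized or axenic heads, other denominators, and each library left out. Intervals and floors (3 counts over a group) cover counting error only.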

Additional observations from a re-analysis of the deposited data

Results flagged for a closer look

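Of 278 groups of libraries checked, 30 held 1 library set apart from the rest by its gap to the nearest other, where chance alone sets apart about 1 in 20 groups. The groups are not independent, since classes hold rows that were also checked singly, and some rows lie near 0 CPM. The number of flags was therefore not tested against that rate. Ribosomal-depleted G was set apart most often among ribosomal-depleted libraries and polyA 1 and polyA 2 among polyA libraries. All values below are high except the last, and none was tested for a cause.

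Ribosomal-depleted G held 0.136% of counts in rRNA rows (0.00585% to 0.00791% in the other 5), 1.05% in mitochondrial messengers (0.888% to 0.915%) and 0.00292% in unclassed rows (0.00226% to 0.00250%). It also stood at 184 CPM for CT583728.13, 168 CPM for CT583728.24 and 0.922 CPM for CT583728.26. Ribosomal-depleted A held 0.196% in pseudogenes (0.122% to 0.147% in the others), 1855 CPM of CT027638.1 (805 to 1129) and 514 CPM of zgc:158463 (309 to 362). Ribosomal-depleted H stood at 151 CPM for arr3a (85.4 to 109) and 0.278 CPM for CABZ01079804.1. Ribosomal-depleted F stood at 163 CPM for syt1a (141 to 149) and 0.980 CPM for si:dkey-262j3.7.

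PolyA 1 held 0.501% of counts in rRNA rows (0.0517% to 0.181% in the other 6) and 0.00299% in snoRNA (0.00100% to 0.00170%). It stood at 3901 CPM for CT583728.3, 850 CPM for mbpa (213 to 343), 3020 CPM for mt-nd2 (1282 to 1722) and 3275 CPM for opn1sw1 (1001 to 1532). PolyA 2 stood at 10022 CPM for mylpfa (1994 to 4576), 216 CPM for mpx (51.5 to 108), 188 CPM for mych (41.0 to 94.2), 0.682 CPM for RF00478 and 0.105 CPM for hist1h2a2. PolyA 4 stood at 0.665 CPM for hist1h2a4, polyA 6 at 0.331 CPM for RF00006 and 0.236 CPM for RF00618, and polyA 7 at 6.20 CPM for RF00004 and 1.32 CPM for RF00030. PolyA 5 was low for rplp1, at 10866 CPM against 21295 to 26256 CPM in the other 6.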

How the results depend on the processing

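No paired analysis was possible because the 2 sets of libraries came from different experiments and not from the same RNA. The design confounds chemistry with every other feature of the experiments, and no length, exon or base composition was available to correct for. Counts of calls kept within 1.5 times except that 1170 symbols were at least 4-fold lower with upper-quartile factors and 3271 at least 4-fold higher with no filter. Of named genes' alternatives, 3421 kept direction and side of the threshold, 42 gained and 10 lost the call, and 6 turned round. The causes of these moves were not tested.

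The turned ones were h1fx (0.36 in re-colonized and 0.46 in axenic heads), hist2h2l (0.42 in re-colonized), prss59.1 (0.87 in axenic) and si:dkey-239b22.1 (0.81 in re-colonized and 0.022 in axenic heads). Without the 7SL and 7SK rows the difference in symbols needed for 50% of counts was 55.2, and differences in share, in percentage points, were 0.270 for lincRNA, 0.508 for mitochondrial messengers, 0.0189 for antisense (now past the threshold, with ribosomal-depleted libraries higher) and -0.123 for rRNA, the last no longer past the threshold. With coding counts as the denominator they were 1.00 for mitochondrial messengers, -0.707 for ribosomal protein and -0.353 for other coding messengers. Antisense gave -0.0132 over all rows, -0.00928 in re-colonized and -0.0127 in axenic heads, which passed. Sense intronic or overlapping rows gave 0.000606 in re-colonized and 0.000455 in axenic heads, unclassed rows 0.000597 in re-colonized and processed transcripts 0.0295 in axenic heads, which did not pass.

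Medians of lists, here minus the median of all symbols, moved beyond the spread between libraries as follows. In re-colonized heads they were 9.11 for replication-dependent and -1.22 for replacement histones, 7.58 for snoRNA, 0.43 for lincRNA, 0.33 for mitochondrial messengers, 0.24 for oxidative phosphorylation, -0.53 for very long genes, -1.89 for neuron, -0.15 for glia, -0.84 for lens, -0.23 for muscle, -0.48 for skin, 0.99 for leukocyte, 1.23 for liver and -0.21 for heat shock. In axenic heads they were 9.59 for replication-dependent histones, 9.08 for the histone windows, 0.59 for lincRNA, 1.24 for processed transcripts, 0.36 for mitochondrial messengers, 0.15 for oxidative phosphorylation, -0.46 for very long genes, -0.23 for glia, -0.88 for photoreceptor, -0.41 for lens, -0.10 for intestine, 0.35 for liver, -0.046 for immediate early and -0.30 for heat shock genes. With no filter they were 8.48 for replication-dependent histones, 8.02 for the windows, 6.50 for snoRNA, 0.83 for lincRNA, -1.83 for neuron and -0.0021 for immediate early genes. With a minimum mean of 1 CPM they were 0.69 for processed transcripts and 0.34 for lincRNA. With limma voom they were 9.07 for replication-dependent histones, 8.45 for the windows, 0.64 for lincRNA and 1.39 for processed transcripts, and with DESeq2 8.53 for the windows. With all 36 libraries in 1 fit they were 7.46 for snoRNA and 0.84 for lincRNA, and without structural RNAs 0.71 for lincRNA. Leaving out 1 library gave 8.55 to 9.03 for replication-dependent histones, 8.16 to 8.65 for the windows, 7.93 to 8.29 for snoRNA, 0.45 to 0.62 for lincRNA, 1.05 to 1.34 for processed transcripts and -0.88 to -0.58 for heat shock genes.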

Other observations

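Rows that stood in one table only were not compared between chemistries. They numbered 837 in the ribosomal-depleted and 1054 in the polyA table. In the ribosomal-depleted table they included 24 snoRNA symbols, with 0.0652% ± 0.00320 of counts, and 3 snRNA symbols, with 0.0884% ± 0.00751, among them RF00015 at 8600 to 12358 counts per library. In the polyA table they included 197 antisense symbols, with 0.0126% ± 0.00294 of counts, and 17 mitochondrial transfer RNA symbols, with 0.00510% ± 0.00111.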
